A study of Homo sapiens with 6 samples.

Results

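The promoter peaks of 2 histone marks, H3K4me3 and H3K27me3, were compared within a single genotype, HL-60 cells knocked out for JMJD3. A gene was counted as carrying a mark when the centre of a listed peak lay at most 5 kb from a transcription start site (TSS) of that gene, or when the peak spanned the TSS. Of 18086 gene symbols listed with a peak of either mark in either genotype, 12115 carried at least 1 of the marks at a promoter in the knockout. These divided into 11216 genes with H3K4me3 only, 152 with both marks and 747 with H3K27me3 only, and 5971 listed genes had neither mark within reach.

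HL-60 is a human promyelocytic leukaemia cell line, and its labelled cell type is myeloblast. The series holds 6 chromatin immunoprecipitation sequencing (ChIP-seq) libraries, with an H3K4me3, an H3K27me3 and an input library for each of 2 genotypes, parental and JMJD3 knockout (labelled JMJD3_KO), all from cells grown in DMEM with serum and with no treatment named. Each mark was therefore measured in 1 library per genotype, so every comparison is between single libraries and no p-value is given. Whether the knockout was 1 clone or a pool of clones is not stated in the labels. The mark of each library was taken from its title, because the antibody label of the H3K27me3 libraries names H3K4me3.

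H3K4me3 is deposited by MLL/SET1 complexes around the starts of active or poised genes, and H3K27me3 is deposited by Polycomb repressive complex PRC2 over silent genes, where it is read by PRC1. Promoters that carry both marks, called bivalent, are best known at developmental regulators in stem and progenitor cells, and CpG-rich promoters are their usual setting. JMJD3, the product of KDM6B, removes methyl groups from H3K27.

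The lists of the 2 marks differed in kind. The knockout H3K4me3 list held 24943 peaks that covered 8.29 Mb with a median width of 260 bp, and 62.3% of them had a centre within 1 kb of a TSS. By contrast, the 3234 H3K27me3 peaks covered 4.17 Mb with a median width of 1032 bp, and 5.69% were centred within 1 kb of a TSS. Sequencing depth is unknown and peak heights are not in the files, so a gene with no listed peak is not shown to lack the mark. All 7 myeloid transcription factors checked as markers of the labelled cell type, SPI1 and CEBPA among them, carried H3K4me3. Of 9 granule and surface genes of myeloid cells 4 did, along with 2 of 5 lymphoid, 1 of 5 erythroid, 0 of 3 epithelial and 0 of 3 neuronal markers, and none of these 32 genes carried H3K27me3. KDM6B itself carried 4 H3K4me3 peaks that summed to 710 bp in the knockout and 3041 bp in the parental cells, with no H3K27me3 in either, and a histone mark does not check the deletion.

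Promoter sequences are shown for 3 genes with both marks and 3 with H3K27me3 only, to set letters beside the peak classes. They run from 250 bases before to 50 after the start, from RefSeq on GRCh38.p14, while all peak positions below are in hg19. CG dinucleotides are in capitals. The genes were picked after their values were seen, among named genes with a single start in the RefSeq table. CCDC39 (chr3:180679440-180679739, minus strand), PTPRU (chr1:29236272-29236571, plus strand) and LBH (chr2:30231284-30231583, plus strand) carried both marks.
CCDC39: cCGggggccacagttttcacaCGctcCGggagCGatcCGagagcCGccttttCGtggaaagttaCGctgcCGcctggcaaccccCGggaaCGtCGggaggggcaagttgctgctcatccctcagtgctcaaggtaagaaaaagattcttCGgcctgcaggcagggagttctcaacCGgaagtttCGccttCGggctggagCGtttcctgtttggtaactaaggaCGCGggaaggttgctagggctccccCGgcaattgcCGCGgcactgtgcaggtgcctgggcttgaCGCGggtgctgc
PTPRU: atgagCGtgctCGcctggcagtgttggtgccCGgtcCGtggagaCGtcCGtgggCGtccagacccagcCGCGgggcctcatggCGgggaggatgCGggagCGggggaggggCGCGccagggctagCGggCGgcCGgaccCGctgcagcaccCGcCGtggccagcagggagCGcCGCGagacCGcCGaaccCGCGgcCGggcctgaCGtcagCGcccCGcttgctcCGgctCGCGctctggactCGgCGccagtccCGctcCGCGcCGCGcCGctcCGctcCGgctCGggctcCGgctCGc
LBH: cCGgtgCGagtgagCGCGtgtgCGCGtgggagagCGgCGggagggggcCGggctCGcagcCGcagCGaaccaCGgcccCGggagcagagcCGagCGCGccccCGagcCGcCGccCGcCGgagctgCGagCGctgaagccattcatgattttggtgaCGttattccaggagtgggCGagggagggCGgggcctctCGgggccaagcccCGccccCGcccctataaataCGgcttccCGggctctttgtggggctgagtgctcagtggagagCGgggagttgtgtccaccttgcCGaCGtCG
FLG (chr1:152325190-152325489, minus strand), GCG (chr2:162152198-162152497, minus strand) and COL4A1 (chr13:110307108-110307407, minus strand) carried H3K27me3 only.
FLG: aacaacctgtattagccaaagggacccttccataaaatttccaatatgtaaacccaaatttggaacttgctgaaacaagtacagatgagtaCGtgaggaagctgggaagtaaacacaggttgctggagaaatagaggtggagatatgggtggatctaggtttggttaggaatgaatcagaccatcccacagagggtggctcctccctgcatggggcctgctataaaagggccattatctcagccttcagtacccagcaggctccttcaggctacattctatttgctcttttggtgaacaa
GCG: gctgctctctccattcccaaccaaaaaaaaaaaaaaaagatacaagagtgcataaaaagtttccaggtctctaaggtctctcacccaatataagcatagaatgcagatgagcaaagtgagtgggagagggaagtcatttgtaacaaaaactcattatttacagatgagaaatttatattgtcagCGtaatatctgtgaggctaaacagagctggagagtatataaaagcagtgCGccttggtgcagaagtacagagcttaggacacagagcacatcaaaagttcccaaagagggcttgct
COL4A1: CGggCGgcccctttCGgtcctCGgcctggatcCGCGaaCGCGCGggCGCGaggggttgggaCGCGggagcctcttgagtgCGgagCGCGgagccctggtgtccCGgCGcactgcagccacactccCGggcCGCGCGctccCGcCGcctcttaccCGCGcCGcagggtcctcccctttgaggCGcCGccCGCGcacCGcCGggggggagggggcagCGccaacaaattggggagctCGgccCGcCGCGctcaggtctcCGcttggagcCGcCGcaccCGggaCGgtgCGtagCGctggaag
The windows of CCDC39, PTPRU and LBH held 24, 47 and 36 CG dinucleotides, against a median of 14 over 35116 RefSeq promoters of that length. FLG held 1 and GCG held 2, but COL4A1 held 45. The H3K27me3 peaks of these last 3 genes lie beside the printed windows, with the nearest centres 1422, 3990 and -3894 bp from the TSS in genome direction. At LBH both marks also lie outside the window, with H3K4me3 starting 559 bp and H3K27me3 677 bp past the TSS. The H3K27me3 peak of PTPRU starts 356 bp past its TSS, and only at CCDC39 do both marks cover the TSS. Only 103 of the 152 genes with both marks had a promoter in the table, fewer than the 80% needed, and no comparison of composition between classes was made.

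Promoter H3K4me3 was the common state and promoter H3K27me3 the rare one. H3K4me3 was called at 11368 genes, 62.9% of those listed, and H3K27me3 at 899, or 4.97%. Genes with H3K4me3 only made up 62.0%, genes with both marks 0.840%, genes with H3K27me3 only 4.13% and genes with neither 33.0%. Among the 899 genes with H3K27me3, 152 also carried H3K4me3, a share of 16.9% (95% Wilson interval 14.6 to 19.5). Of the 17187 listed genes without H3K27me3, 65.3% (64.5 to 66.0) carried H3K4me3. The difference was -48.4 percentage points (-50.8 to -45.7). Read from the other side, 1.34% of H3K4me3 genes (1.14 to 1.57) and 11.1% of genes without H3K4me3 (10.4 to 11.9) carried H3K27me3. These intervals cover counting error only, and neighbouring genes that share a peak are not independent.

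The direction held at each distance tried but not when a peak had to lie over the TSS itself. With a window of 1 kb, 19.3% of H3K27me3 genes carried H3K4me3 against 56.0% of the others, and with 20 kb the shares were 20.7% and 83.7%. Counting only peaks that spanned a TSS left 114 H3K27me3 genes, of which 10 carried H3K4me3, or 8.77% against 6.18% of the other genes. The difference was then 2.59 percentage points in the opposite direction, and H3K4me3 was called at 1121 genes rather than 11368. This difference rests on 10 genes and has no interval here, so a real change of direction is not shown. The files list only genes with a peak within 20 kb, so genes without H3K27me3 are listed largely through H3K4me3. This raises their H3K4me3 share as the window widens, and the wider windows are no independent support. Counted over all protein-coding RefSeq symbols with the 5 kb window, 20.4% (133 of 652) of H3K27me3 genes and 49.4% (9593 of 19400) of the others carried H3K4me3.

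**Figure D1:**
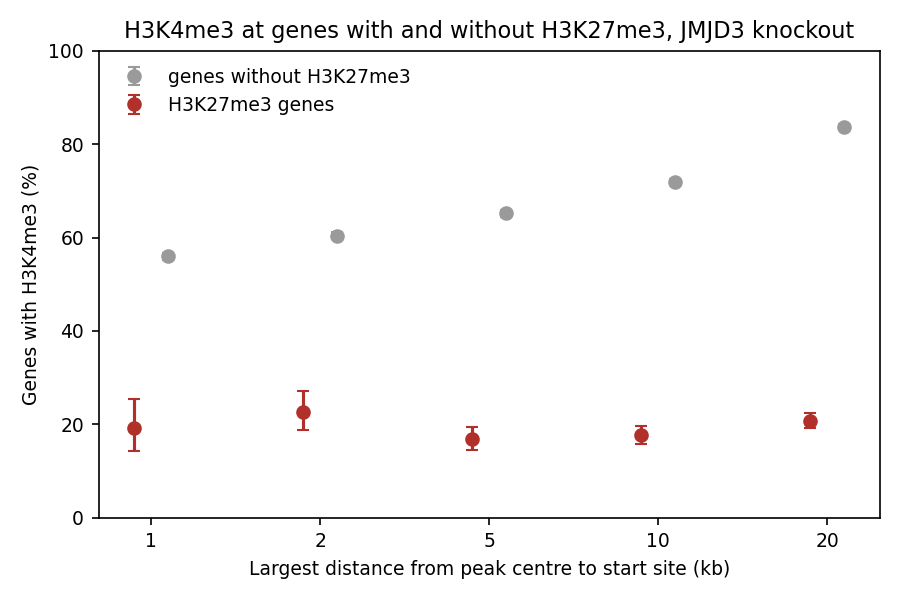
Share of genes with promoter H3K4me3 in the knockout (vertical axis, percent) by the largest distance allowed between peak centre and TSS (horizontal axis, kb), with 95% Wilson intervals that are narrower than the points for genes without H3K27me3. Genes with H3K27me3 (red) lie between 16.9% and 22.6% at all 5 distances, and genes without it (grey) between 56.0% and 83.7%. The grey shares are raised by the listing of genes through a peak within 20 kb.

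H3K27me3 peaks were centred 1 to 2 kb from a TSS more often at genes with H3K4me3 than at genes without it. In 710 pairs of an H3K27me3 peak and a TSS of a gene with promoter H3K4me3, 6.06% (4.53 to 8.06) had the peak centre within 1 kb of the TSS and 8.73% (6.87 to 11.0) between 1 and 2 kb. In 3865 pairs with genes lacking H3K4me3 the shares were 4.06% and 4.48% (3.87 to 5.17), where an even spread over the 20 kb range would give 5% in each. The intervals of the 2 classes did not overlap between 1 and 2 kb and did within 1 kb. A peak is paired with each listed start of a gene, so pairs are not independent and these intervals are too narrow. H3K4me3 peaks had 36.8% of their pairs within 1 kb.

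**Figure D2:**
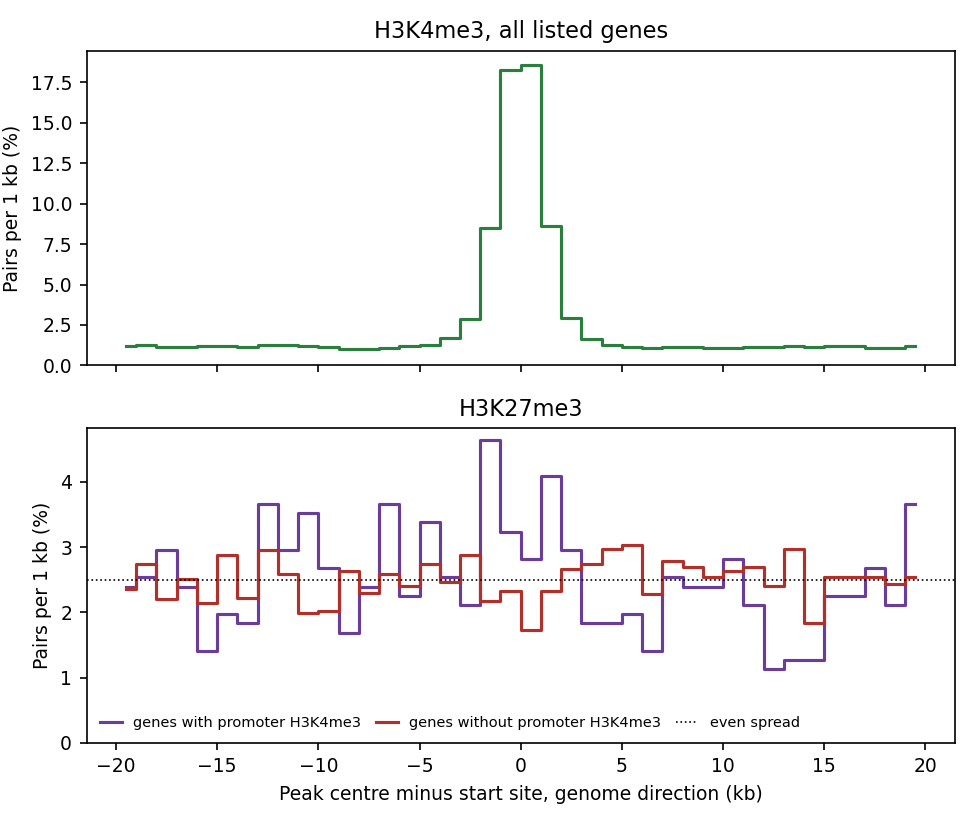
Percent of peak and TSS pairs per 1 kb (vertical axis) by the peak centre minus the TSS in genome direction (horizontal axis, kb), for H3K4me3 (top) and for H3K27me3 at genes with (purple) and without (red) promoter H3K4me3 (bottom), with an even spread dotted. H3K4me3 is concentrated within 2 kb of the TSS, and the purple line stands highest between 1 and 2 kb on either side.

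At most of the 152 genes with both marks, the peaks lay apart rather than on top of each other, an order that turned with a 1 kb window (52.6% of 38 genes overlapping) and with TSS-spanning peaks only (90.0% of 10). Promoter peaks of the marks overlapped by at least 1 bp at 43 genes, 28.3% (21.7 to 35.9), which lie at 40 loci. At 49 genes (32.2%) the nearest peaks were separated by 1 bp to 1 kb, at 46 (30.3%) by 1 to 5 kb, and at 14 (9.21%) by more or on another chromosome. Both marks reached the same TSS at 142 genes (93.4%). The nearest H3K4me3 centre was closer to it than the nearest H3K27me3 centre in 124 of these (87.3%). Centres are compared here, so a wide H3K27me3 peak that covers the TSS can count as the farther one, as at ZNF521. The nearest centres of the marks fell on the same side of the TSS in 70 (49.3%, 41.2 to 57.4). Where they overlapped, the median overlap was 216 bp (29 to 1207 bp). A whole H3K4me3 peak lay inside an H3K27me3 peak at 24 genes (15.8%), and an H3K27me3 peak lay inside an H3K4me3 peak at 0 of 152, which allows a share of up to 2.46%. The narrowest H3K27me3 peak had 298 bp and the median H3K4me3 peak 260 bp. The called widths thus left little room for the second layout, and the contrast is no separate result about position. Separate immunoprecipitations of a cell population do not show whether overlapping marks sat on the same allele or in the same cell, so these cases cannot be told apart.

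Peaks that covered the TSS were more frequent at genes with both marks for H3K4me3. This was the case at 35 of 152 genes (23.0%, 17.0 to 30.3), against 9.68% (9.15 to 10.2) of the H3K4me3-only genes. For H3K27me3 the shares were 15.1% (10.3 to 21.7) and 12.2% (10.0 to 14.7) of the H3K27me3-only genes, with intervals that overlapped. Both marks covered 1 TSS at 9 genes, namely ANKRD29, CCDC39, DNAJC22, DUSP1, KCTD1, MFSD6, PLEKHH3, RIMKLB and SERPINE2.

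The widest overlap was at SERPINE2, which encodes a secreted serine protease inhibitor. Its single H3K4me3 peak of 1207 bp (chr2:224903227-224904433) lay wholly inside an H3K27me3 peak of 2958 bp (chr2:224902004-224904961), across the TSS at 224903357. MFSD6, a membrane transporter-like gene, had the same layout, with 1182 bp of H3K4me3 (chr2:191272775-191273956) inside 3199 bp of H3K27me3 (chr2:191271522-191274720), the first of 2 H3K27me3 peaks that summed to 4319 bp. At CCDC39, required for assembly of ciliary dynein arms, an H3K4me3 peak of 1120 bp (chr3:180396807-180397926) lay inside an H3K27me3 peak of 2356 bp (chr3:180396518-180398873). RIMKLB, an amino acid ligase, had 998 bp of H3K4me3 (chr12:8850220-8851217) inside 2795 bp of H3K27me3. At these 4 genes the H3K4me3 peak was covered in full and both peaks crossed the TSS.

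Partial overlaps had several forms. At DNAJC22, a J-domain chaperone gene, 740 bp of H3K27me3 overlapped 654 bp of a pair of H3K4me3 peaks that summed to 1218 bp. PTPRU, a receptor tyrosine phosphatase, had 574 bp of overlap, and its H3K27me3 peak of 1775 bp extended past the H3K4me3 peaks on 1 side. LBH, a transcription cofactor gene, had 568 bp of H3K4me3 (chr2:30454956-30455523), of which 450 bp were shared with 1622 bp of H3K27me3 (chr2:30455074-30456695). Among the 10 genes with the most overlap, 3 on chromosome 18 had narrow H3K4me3 within very wide H3K27me3. These were ZNF521, a zinc finger cofactor of haematopoietic progenitors, with 563 and 5134 bp, KCTD1, a BTB-domain transcriptional repressor, with 516 bp inside a peak of 7792 bp, 1 of 3 that summed to 15311 bp, and GAREM, an adaptor of growth factor signalling, with 491 bp inside a peak of 5662 bp, 1 of 2 that summed to 8475 bp. The 15311 bp at KCTD1, summed over 3 peaks at distant starts, were the largest H3K27me3 width among genes with both marks.

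**Figure D3:**
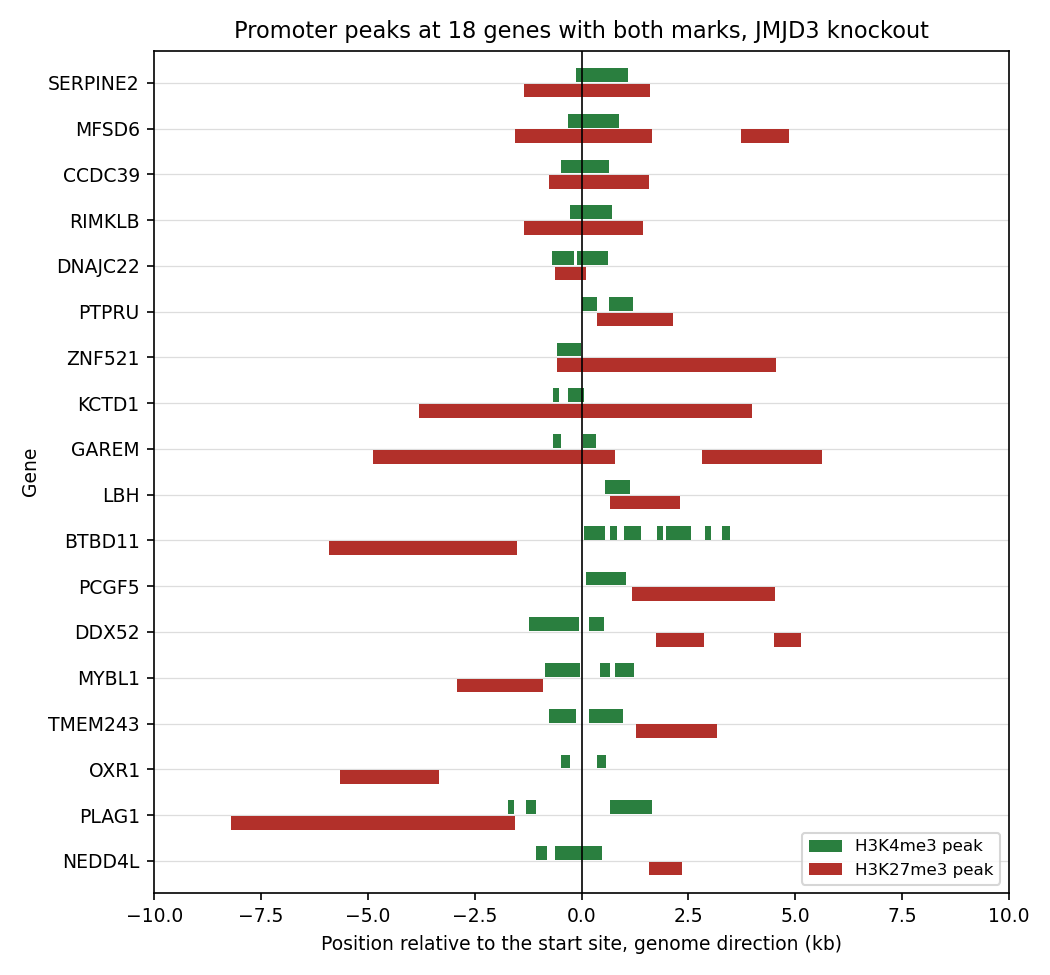
Promoter peaks of H3K4me3 (green) and H3K27me3 (red) at the 10 genes with the most overlap (top, SERPINE2 to LBH) and the 8 genes widest in both marks (bottom, BTBD11 to NEDD4L), by position from 1 TSS in genome direction (kb, 10 kb to each side, with peaks at more distant starts not drawn). The H3K4me3 peaks of the upper genes lie on or within red peaks, and of the lower genes PLAG1 alone has an overlap.

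Of the 8 genes ranked highest by the smaller of their 2 summed widths, 7 had no overlap. The sums join several peaks, some at distant starts. The widest single H3K4me3 peak ran from 372 bp at OXR1 to 1175 bp at DDX52, against 1207 bp at SERPINE2, which was covered in full. Wide single peaks are thus not shown to lie apart. BTBD11, an ankyrin and BTB-domain gene, had 7 H3K4me3 peaks of 2152 bp on 1 side of its TSS and an H3K27me3 peak of 4383 bp on the other, 1572 bp apart. PCGF5, which encodes a subunit of a variant PRC1 complex, had 1593 bp of H3K4me3 and an H3K27me3 peak of 3362 bp (chr10:92923941-92927302) that began 140 bp past the nearest H3K4me3 peak (chr10:92922865-92923800). MYBL1, a MYB-family transcription factor, had 1490 and 2011 bp with 47 bp between them. The gap was 315 bp at TMEM243, 1102 bp at the ubiquitin ligase gene NEDD4L, 1222 bp at the RNA helicase gene DDX52 and 2840 bp at the oxidation resistance gene OXR1. PLAG1, a zinc finger transcription factor, had 147 bp of overlap between 1364 bp of H3K4me3 and 6646 bp of H3K27me3.

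H3K4me3 was narrower at genes with both marks than at genes with H3K4me3 only. The summed width had a median of 614.5 bp (146 to 3063 bp in all, quartiles 399.25 and 944 bp) at the 152 genes and of 812 bp (quartiles 466 and 1271 bp) at the 11216. H3K27me3 widths were closer, with medians of 1313.5 bp (quartiles 763.25 and 2329 bp) and 1214 bp (quartiles 737 and 1998 bp). The nearest H3K27me3 centre was at a median of 1745 bp from the TSS at genes with both marks and 2451 bp at H3K27me3-only genes. The classes overlapped widely in each of these measures. Within the 152 genes, H3K27me3 was wider at the 43 with overlapping peaks, with a median of 1943 bp against 1195 bp at the rest. A wide peak has more room to overlap, so choosing genes by overlap favours wide H3K27me3.

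**Figure D4:**
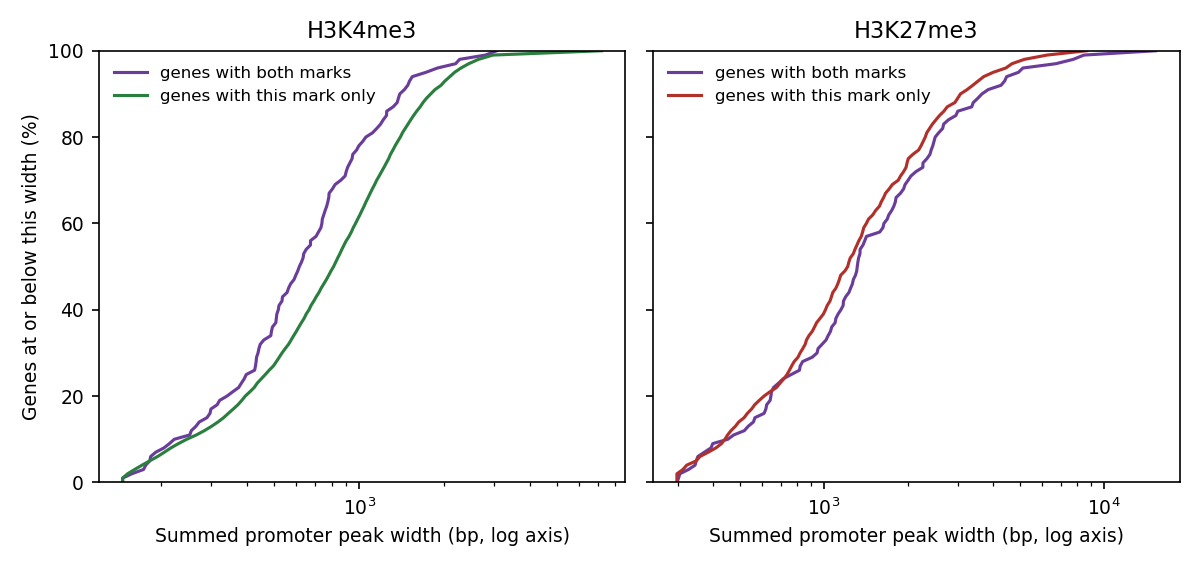
Percent of genes at or below a given summed promoter peak width (vertical axis) by that width (bp, log axis), for H3K4me3 (left) and H3K27me3 (right). The purple line of genes with both marks lies to the left of H3K4me3-only genes, with medians of 614.5 and 812 bp, and near the H3K27me3-only genes, with medians of 1313.5 and 1214 bp.

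Over the whole lists, including peaks away from promoters, few peaks of the 2 marks overlapped. Of the 3234 H3K27me3 peaks, 44 overlapped an H3K4me3 peak, or 1.36% (1.02 to 1.82), and 94 (2.91%) came within 1 kb of one. The 44 had a median width of 1859 bp, and the others 1027.5 bp, a difference that choosing peaks by overlap itself favours. Of the 24943 H3K4me3 peaks, 55 (0.221%) were overlapped. The lists covered only 8.29 Mb for H3K4me3 and 4.17 Mb for H3K27me3. The overlap that an even spread would give was not computed, so these counts do not show that the marks avoided each other.

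The H3K27me3-only genes were led by epidermal and other tissue-restricted genes. LCE1D and LCE4A, late cornified envelope genes, had 8671 and 7315 bp of H3K27me3, and FLG, which encodes filaggrin of the outer epidermis, had 8035 bp. GCG, the glucagon precursor gene, had 7402 bp. ARHGEF12 with 7299 bp and ARHGAP32 with 6998 bp were the other two of the widest 6. LCE1D, FLG, GCG and LCE4A had no listed H3K27me3 when the window was 1 kb, and ARHGEF12 and ARHGAP32 did. Of 35 listed genes of the epidermal cornified envelope, 20 (57.1%) carried H3K27me3 and 1 carried H3K4me3, against 4.97% and 62.9% of all listed genes, and the 20 did so through 28 peaks. Of 71 keratin and keratin-associated genes, 21 (29.6%) carried H3K27me3 only, through 17 peaks, with KRTAP9-9 at 3789 bp. Of 170 olfactory receptor genes, 47 (27.6%) did, through 58 peaks, with OR4F6 at 4032 bp. None of these 3 lists held a gene with both marks. Members of such a cluster share peaks and are not separate observations.

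Neurotransmitter receptor and ion channel genes had the next highest shares of H3K27me3 among the 26 lists. Of 41 neurotransmitter receptor genes, 8 (19.5%) carried H3K27me3, none of them with H3K4me3, led by the serotonin receptor gene HTR4 with 5526 bp and the acetylcholine receptor gene CHRNB2 with 2984 bp. The 81 voltage-gated ion channel genes held 13 with H3K27me3 only, such as the potassium channel gene KCNA3 with 3163 bp, and 3 with both marks. These 3 were KCNH2, a potassium channel gene with 1878 bp of H3K4me3 and 670 bp of H3K27me3, SCN8A, a sodium channel gene with 392 and 1308 bp, and KCNMB4, a potassium channel subunit gene with 782 and 559 bp. Only the peaks of SCN8A overlapped, by 29 bp.

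Among the 26 lists, the highest shares of genes with both marks were in developmental and ion channel genes, on few genes each. They were 8.33% of 36 developmental ligands and receptors, 4.08% of 49 developmental transcription factors outside the HOX clusters and 3.70% of the 81 ion channel genes, against 0.840% of all listed genes. These are shares of listed genes, and 18 of 54 ligands and receptors and 30 of 79 transcription factors were not listed. Of the 36 ligands and receptors, 3 carried both marks, 2 H3K27me3 only and 7 H3K4me3 only, and 24 carried neither. CDON, a hedgehog co-receptor, had 789 bp of H3K4me3 and 4862 bp of H3K27me3 with 118 bp of overlap. FGF9, a secreted growth factor, had 781 and 1048 bp with a gap of 66 bp, and FGF14, an intracellular relative, had 183 and 1935 bp with a gap of 632 bp. Of the 49 transcription factors, 2 carried both marks. One was PAX2, with 270 and 1716 bp and a gap of 138 bp, and the other was FOXP2, with 338 and 5047 bp and a gap of 2868 bp. The 5047 bp at FOXP2 were summed over distant starts, and the H3K27me3 peak nearest to its H3K4me3 peak had 2451 bp. H3K27me3 alone was listed at 4 more of them, SOX6 with 4454 bp being the widest, and 35 carried neither mark. The 33 listed of 39 HOX genes held 26 with neither mark, 6 with H3K4me3 only and 1, HOXB9, with H3K27me3 of 1508 bp.

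Housekeeping, cell cycle and myeloid transcription factor genes had H3K4me3 only more often than the 62.0% of all listed genes. Ribosomal protein and housekeeping genes had H3K4me3 only in 39 of 40 cases, cell cycle and replication genes in 31 of 34, and myeloid transcription factors in 20 of 23. Within the machinery that sets and removes the marks, 37 of 40 genes had H3K4me3 only. The exception with both marks was CBX7, the PRC1 chromodomain protein that binds H3K27me3, with 265 bp of H3K4me3 and 821 bp of H3K27me3 separated by 217 bp. CDK6, the cyclin D partner kinase, was the cell cycle gene with both marks, with 8 H3K4me3 peaks of 3063 bp and an H3K27me3 peak of 1272 bp 449 bp away. Its 3063 bp, shared with the overlapping LOC101927497, were the most H3K4me3 among genes with both marks. The widest H3K4me3-only promoters were those of TRIB1, a pseudokinase that directs degradation of C/EBP factors, with 7179 bp, MYC with 6598 bp, its neighbour CASC11 with 6361 bp, ARHGEF2 with 5524 bp, the ETS factor gene ELF1 with 5281 bp and the lamin gene LMNA with 5180 bp. The peaks counted at CASC11 were also counted at MYC, so these are not separate observations. TRIB1 lies on the same chromosome, with TSS at chr8:126444450 for TRIB1 and chr8:128748314 for MYC. DNA copy number was not examined, and its part in these widths was not tested.

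**Figure D5:**
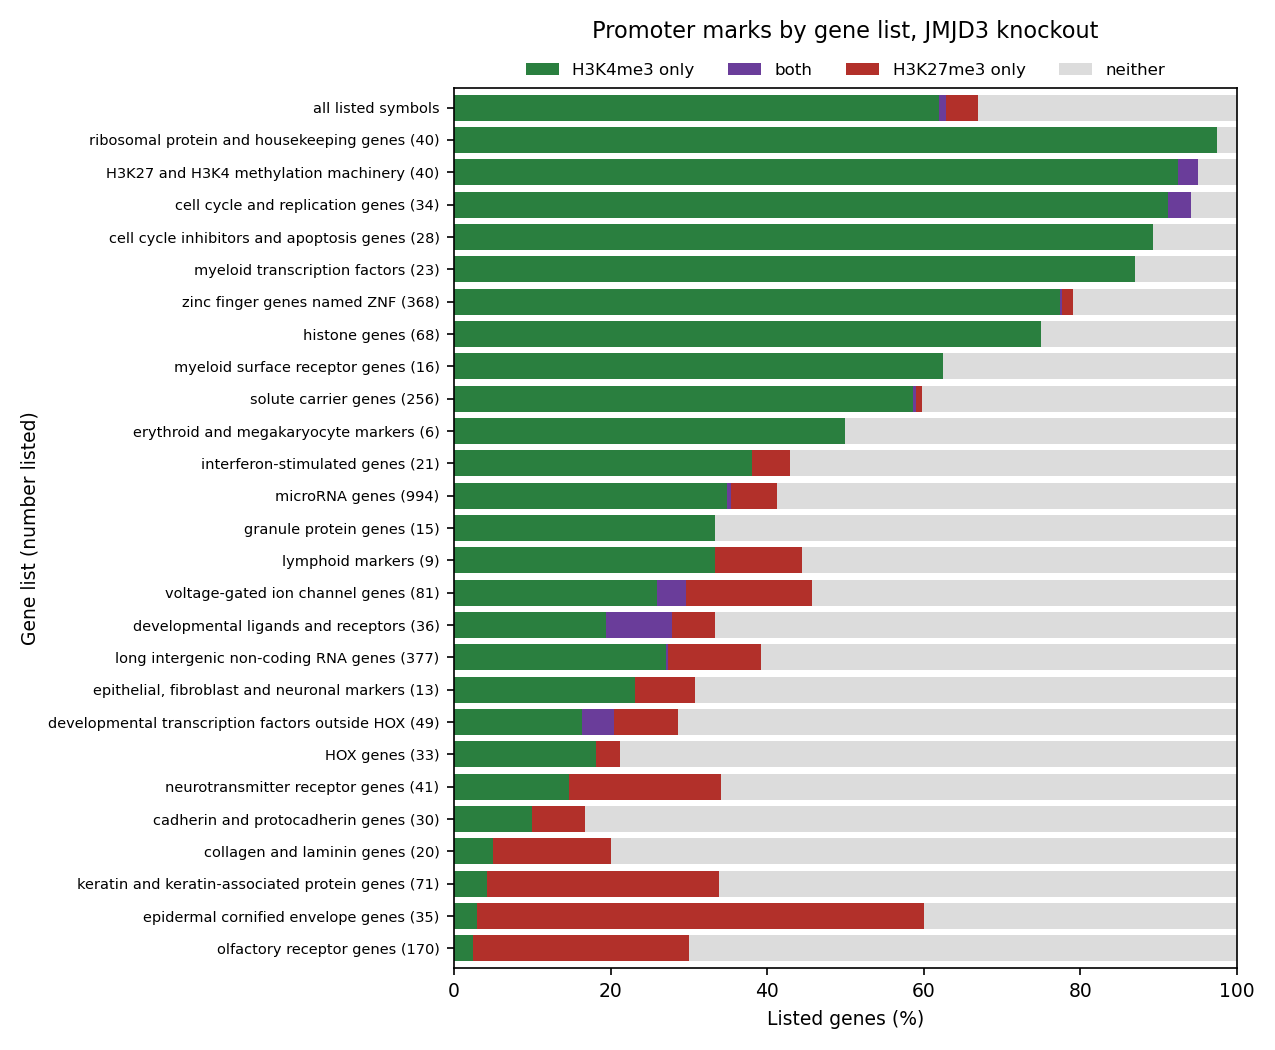
Share of listed genes with H3K4me3 only (green), both marks (purple), H3K27me3 only (red) or neither (light grey) in the knockout (horizontal axis, percent), for all listed symbols and 26 gene lists ordered by H3K4me3 share. Housekeeping genes stand at the top and olfactory receptor genes at the bottom, and cornified envelope genes have the largest red share, 57.1%.

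The other lists are given beside the shares of all listed genes, 62.0% with H3K4me3 only and 4.13% with H3K27me3 only. H3K4me3 only was listed at 285 of 368 zinc finger genes named ZNF, 51 of 68 histone genes, 150 of 256 solute carrier genes (58.6%, near the share of all genes) and 25 of 28 cell cycle inhibitor and apoptosis genes. H3K27me3 only was listed at 5, 0, 2 and 0 of these, and both marks at 1 ZNF gene, ZNF521, and 1 solute carrier gene, SLC30A4, with 637 and 645 bp. Among genes of mature myeloid cells, 5 of 15 granule protein genes and 10 of 16 surface receptor genes (33.3% and 62.5%) had H3K4me3 only, and the rest had neither mark. Of 21 interferon-stimulated genes, 8 had H3K4me3 only and 1, IFI44L, H3K27me3 of 1027 bp. H3K27me3 only was listed at 3 of 20 collagen and laminin genes, with COL4A1 at 5190 bp, and at 2 of 30 cadherin genes, with CDH20 at 871 bp. In the marker lists of other cell types it was listed at 1 of 9 lymphoid genes, RAG1 with 2655 bp, 1 of 13 epithelial, fibroblast and neuronal genes, NEFL with 1073 bp, and 0 of 6 erythroid and megakaryocyte genes.

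Of 377 long intergenic RNA genes, 45 carried H3K27me3 only (11.9%, against 4.13% of all listed genes) and 1 both marks (0.265%, against 0.840%). The latter was LINC00637, with 892 and 1681 bp and an overlap of 148 bp. Among 994 microRNA genes, 59 carried H3K27me3 only (5.94%), led by MIR30A with 5669 bp, and 4 both marks (0.402%). At MIR4254 the H3K4me3 peak of 432 bp lay wholly within H3K27me3. MIR6891 was listed at several positions, and its marks were 1097581 bp apart, so it is no case of a shared promoter.

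The distance rule decided some memberships. The last genes inside it were RGS5, TBCEL and INSIG2, with H3K27me3 centres 4913, 4979 and 4987 bp from a TSS, and HPS1 and AMMECR1 lay just outside, at 5128 and 5248 bp. Loci also counted more than once, since the 152 genes lie at 137 loci and 15 of these hold at least 2 of the genes.

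The parental cells had the same order of classes. In the parental lists, 208 of 924 H3K27me3 genes (22.5%, 19.9 to 25.3) carried H3K4me3, against 73.9% (73.3 to 74.6) of the others, and peaks overlapped at 92 of the 208 (44.2%, 37.6 to 51.0). The parental H3K4me3 list was longer, with 33470 peaks over 17.5 Mb, and what this gap adds to the differences between genotypes was not tested. Of the 152 genes with both marks in the knockout, 95 (62.5%) had both in the parental cells, 50 (32.9%) H3K4me3 only, 4 H3K27me3 only and 3 neither. Of the 208 parental genes, 95 (45.7%) had both in the knockout, 60 H3K4me3 only, 16 H3K27me3 only and 37 neither. SERPINE2 had 1395 bp of H3K4me3 and 3807 bp of H3K27me3 in the parental cells, so both marks were listed there too. LBH, DNAJC22, MYBL1, OXR1, PLAG1, PAX2, KCNH2 and SCN8A were among those with H3K4me3 only in the parental list. FOXP2 had neither mark there, and FGF14 had 5451 bp of H3K27me3 only.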

How the data were processed

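ChIP-seq peak lists of HL-60 were used, 1 for each mark and genotype, and the 2 input libraries were not analysed here. BWA 0.7.10, SAMtools and MACS2 2.1.1 were used with build hg19, per the submitters' processing notes, and the settings and the use of the inputs as controls are not given in the sources used here. Per the file headers, each deposited line joins a peak to a RefSeq transcript and gives positions, the gene, its distance in bp and a score. It is measured from the TSS to the peak centre and stays under 20 kb. The authors' score follows from it as exp(-(0.5 + 4 × distance / 20 kb)), with an error of at most 5e-13, so it holds no peak strength and was not used. With no read counts in the files, depth is unknown. Starts were read as counted from 0 and are printed from 1, a convention the sources used here do not state.

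Distinct peaks were defined by position, and widths were summed per gene over its promoter peaks in Python 3.11.15 with pandas 2.3.3. A gene with several starts can therefore sum peaks that lie far apart. Shares have Wilson 95% intervals. The scripts were tested on simulated data. The genes and the 26 gene lists were chosen with earlier results of these data known. The genes named were KDM6B, the 10 genes with the most overlapping bp, the 8 widest in both marks, the 4 widest without overlap, the 6 widest of each single-mark class, and from each gene list up to 4 members with both marks and 3 with H3K27me3 only, widest first. Genes listed for a shared layout or state were named after their values were seen. Alternatives changed the window, the width minimum, the overlap rule, the gene set and the list length. RefSeq promoters matched 12754 of 18086 symbols by name.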

Additional observations from a re-analysis of the deposited data

Results flagged for a closer look

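At 17 genes the knockout lists gave H3K27me3 only while the parental lists gave H3K4me3 only, and at 0 genes the reverse was seen. The bases of these counts were very unequal. The 17 came from 12691 genes with H3K4me3 only in the parental lists. Far fewer genes had H3K27me3 only there, of which 314 kept it alone in the knockout, 398 had neither mark and 4 had both. With so small a base, 0 genes in the reverse direction does not show a one-way change. This difference between genotypes was not tested, with 1 library a side. The 17 genes were CREB5, CYP24A1, DACT1, DNAH2, DOCK9, IGSF3, KCNN1, LINC00526, LINC00667, LRP4, MIR320B1, PPP2R3A, PXN, RAD21L1, TC2N, TCF7L1 and TCF7L2. Of these, LINC00526 and LINC00667 share peaks, as do IGSF3 and MIR320B1. TCF7L1 and TCF7L2, transcription factors that bind beta-catenin in Wnt signalling, had 654 and 260 bp of parental H3K4me3 and 940 and 872 bp of knockout H3K27me3. LRP4, a Wnt and agrin receptor gene, had 452 and 2370 bp, and CREB5 had 667 and 6027 bp. Parental H3K4me3 at the 17 had a median of 530 bp, against 1552 bp over all 12899 parental H3K4me3 genes, and the knockout H3K4me3 list was the shorter one. The part of these values in the result was not tested.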

How the results depend on the processing

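The number of genes with both marks, 152, became 38 with a 1 kb window, 86 with 2 kb, 267 with 10 kb, 10 with TSS-spanning peaks only and 49 with the H3K4me3 list cut to the length of the H3K27me3 list by width. The H3K4me3 share of H3K27me3 genes, 16.9%, was 22.6% with 2 kb, 8.77% with spanning peaks, 12.1% with peaks of at least 300 bp, 5.45% with the cut list and 20.1% with NM transcripts only. The share difference, -48.4 points, was -36.8 with 1 kb, -37.7 with 2 kb, -54.2 with 10 kb, -43.0 for the nearest gene only, -35.6 with peaks of at least 300 bp, -16.3 with the cut list, -59.8 over symbols in the knockout files, and -29.0 over all protein-coding RefSeq symbols, an alternative added after seeing the data. It was 2.59 with spanning peaks, on only 10 genes with both marks, and was -49.5 with both marks at the same TSS and -50.3 with NM transcripts only. The overlap share of 28.3% was 52.6% with 1 kb, 41.9% with 2 kb, 18.7% with 10 kb, 90.0% with spanning peaks and 19.7% when at least 50% of the shorter peak had to be shared. Overlapped H3K27me3 peaks, 1.36%, were 0.959% with 50% of the H3K4me3 peak covered, 0.762% with peaks of at least 300 bp and 2.91% within 1 kb. Of the 83 named genes, 29 kept their class with 1 kb, 50 with 2 kb and 23 with spanning peaks, and of the 34 with both marks, 11, 21 and 6 did, and 20 with the cut list. No paired analysis was possible because the results come from no test, with 1 library a side. Unknown depth limits every count of genes without a mark.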

Other observations

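Other genes with both marks, picked after their values were seen and with no list behind them, are given as values. HEY2, a Notch target gene, had 192 bp of H3K4me3 wholly inside 3416 bp of H3K27me3, and HEY1, its relative, had 718 and 1409 bp with a gap of 30 bp. The netrin receptor genes UNC5B and NEO1 had 171 and 1028 bp of H3K4me3, 3477 and 3665 bp of H3K27me3, and overlaps of 171 and 205 bp. LGR5, a Wnt pathway receptor gene, had 739 and 4490 bp with 371 bp of overlap, and NKD1, a Wnt inhibitor gene, had 812 and 1315 bp with 196 bp of overlap. ID3, an inhibitor of helix-loop-helix factors, had 297 and 2253 bp with a gap of 39 bp. These 7 genes had both marks in the parental list too. DUSP1, an inducible MAP kinase phosphatase gene, had 738 and 1621 bp with 378 bp of overlap in the knockout and H3K4me3 only in the parental list.

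Promoter H3K27me3 was unevenly spread over the chromosomes in the knockout. On chromosome 18, 44 of 296 listed genes (14.9%) carried it, 37 alone and 7 with H3K4me3, against 4.97% of all listed genes. The share was 9.47% on chromosome 13 and 8.74% on chromosome 8, and 0.984% on chromosome 19 and 0.971% on chromosome 22. H3K4me3 ranged less among these 5 chromosomes, from 57.4% on chromosome 18 to 67.0% on chromosome 22, and was 37.3% on the X chromosome.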
